A study of Mus musculus with 6 samples.

Results

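Heterogeneous nuclear ribonucleoproteins (hnRNPs) are the abundant proteins that coat nascent transcripts in the nucleus. The 34 genes described here encode the hnRNPs outside the H/F family and nuclear RNA-binders that act beside them, namely poly(C)-binding, FET, paraspeckle, cold-inducible and KH-domain proteins. They were chosen by gene symbol from a list of such proteins, with earlier results of these data known. All 34 were found among the 25170 symbols of the deposited table, and all 34 passed the minimum mean of 1 FPKM (a fragment count scaled to transcript length and library size) that 11785 symbols passed.

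RNA-seq was done on 6 libraries of the established mouse line E14, embryonic stem cells (ESCs) grown in serum. Leukemia inhibitory factor (LIF) is a cytokine that keeps such cells self-renewing. With LIF there was 1 wild type (WT) library and 2 libraries of Hnrnpf knockout (KO) cells, numbered 1 and 2, and the same 3 kinds of cells were sequenced after 4 days of LIF removal. The question was how loss of Hnrnpf alters expression in pluripotent and in differentiating cells. The labels do not say which part of Hnrnpf was deleted, whether a knockout number marks a clone, or whether libraries came from separate cultures, so a p-value reflects only how far these libraries vary, and that variation may be technical.

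Proteins of this group bind RNA through RRM, KH or RGG-rich domains. They choose splice sites and 3′ ends and carry mRNA to the cytoplasm, where several also govern its stability. Many keep their own levels and those of their relatives in balance, because they promote unproductive splicing of hnRNP transcripts that are then degraded. In ESCs, hnRNPs such as PTBP1 hold back splice forms that belong to differentiated tissues.

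Hnrnpf, the targeted gene, stood at 342 FPKM in the WT library with LIF and at 335 without it. The KO libraries kept 28.9% (number 1) and 10.8% (number 2) of the WT value with LIF and 28.4% and 8.28% without it. All 10 embryonic stem cell markers checked, Pou5f1 and Nanog among them, averaged 1 FPKM or more, and their summed level ran from 3402 to 10090 FPKM. The fibroblast markers summed to between 3.33 and 8.36 FPKM and the primitive endoderm markers to between 1.29 and 2.97 FPKM, with 1 of 7 and 1 of 5 at a mean of at least 1 FPKM and the fibroblast marker Lum at 0 in 5 of 6 libraries. Trophoblast markers summed to between 24.1 and 39.1 FPKM (4 of 5 at a mean of at least 1 FPKM) and neural markers to between 53.6 and 90.8 FPKM (3 of 5). Library totals of FPKM lay between 456155 and 556318, and read counts were not used here, so the depth behind a value is not known.

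The 34 genes spanned a wide range of abundance, which FPKM allows to be compared between genes because it is scaled to length. That comparison is uncertain for genes with near-identical copies in the genome, such as Hnrnpa1, Hnrnpa3 and Rbmx. Rbmxl1, a copy of Rbmx, had a mean of 110 FPKM. Hnrnpab, a CArG-box and RNA-binding hnRNP of chromosome 11, was the most abundant, with a mean of 621 FPKM over the 6 libraries and rank 79 in the whole table. It was at 572 and 575 FPKM in WT cells, and at 719 and 711 FPKM in KO cells with LIF and 492 and 657 FPKM without it, so KO values lay on both sides of the WT values. Hnrnpa2b1, a splicing and RNA-trafficking hnRNP, followed with a mean of 393 FPKM. It was at 355, 337 and 366 FPKM with LIF (WT, KO 1 and KO 2) and at 458, 395 and 447 FPKM without it, higher in each library without LIF. Next came Pcbp1, a poly(C)-binding protein, with a mean of 342 FPKM. At the low end were Cirbp (28.3 FPKM), Hnrnpr (18.2 FPKM) and Rbmx (5.65 FPKM). Hnrnpr, a relative of Syncrip, was at 14.9 and 17.2 FPKM in WT cells, and at 16.9 and 19.7 FPKM in KO cells with LIF and 19.7 and 20.8 FPKM without it, with 1 KO value inside the WT range. Within a gene, the highest library exceeded the lowest by 1.16 times for Hnrnpm, a GU-rich RNA binder, and by 2.26 times for Pcbp4, which had the widest range.

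Together the 34 genes held 5706 FPKM in the WT library with LIF and 5707 without it. In KO cells the sum was 5456 and 5439 FPKM with LIF and 4991 and 5189 FPKM after LIF removal. Thus all 4 KO sums lay below both WT sums. As a share of each library's total FPKM, however, the groups overlapped. The share was 1.03% and 1.17% in the WT libraries and lay at 1.08% and 1.08% in KO cells with LIF and at 1.09% and 1.13% without.

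**Figure D1:**
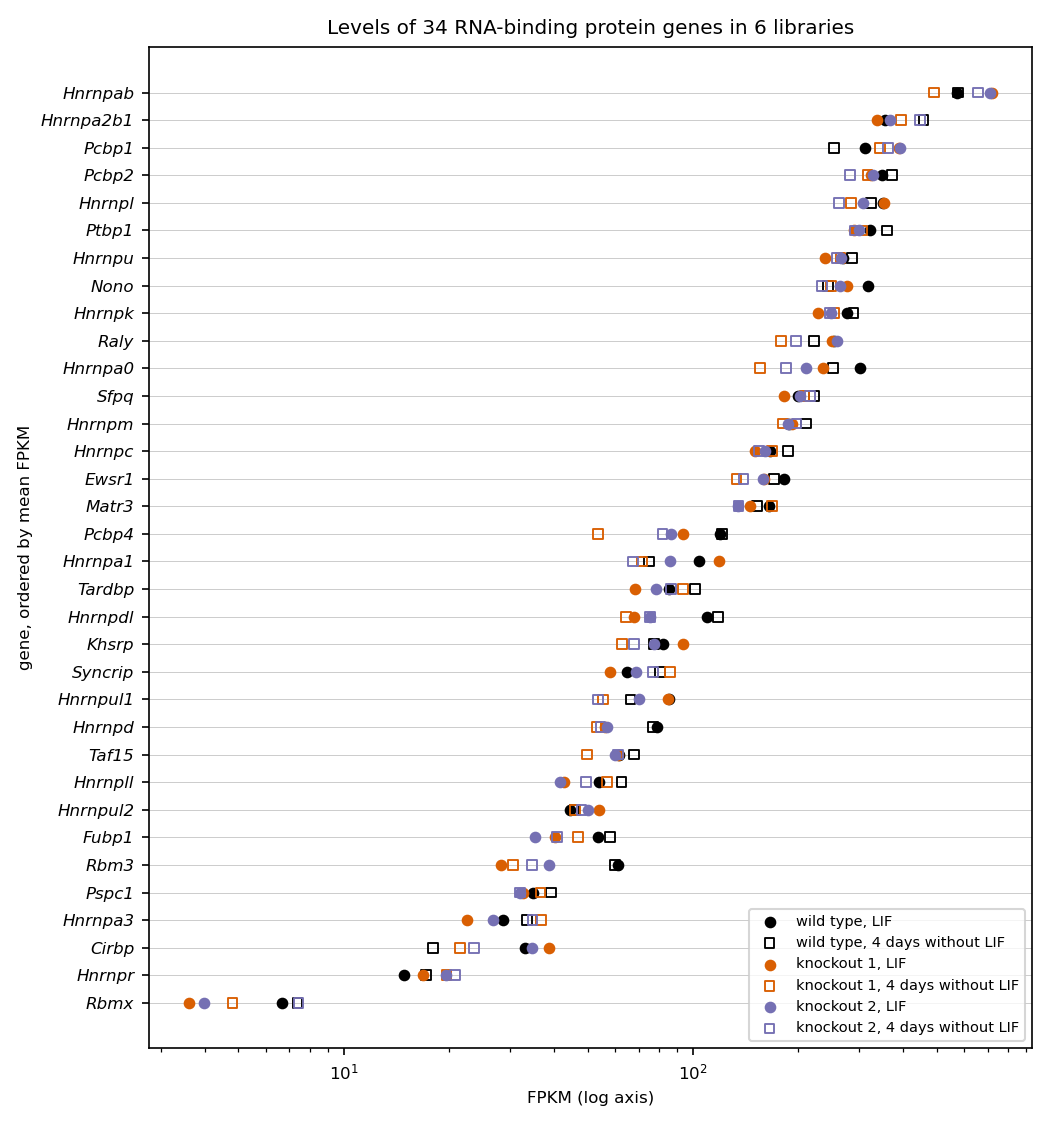
FPKM (log axis) of the 34 genes in the 6 libraries, ordered by mean, with filled circles for cells with LIF and open squares for cells after 4 days without it. Levels run from a mean of 621 FPKM for Hnrnpab to 5.65 FPKM for Rbmx. Within a gene the highest library was 1.16 times (Hnrnpm) to 2.26 times (Pcbp4) the lowest.

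Loss of Hnrnpf was compared over both media, with 4 KO and 2 WT libraries. Of the 34 genes, 5 fell in KO cells: Rbm3, a cold-inducible RNA-binding protein, Hnrnpdl (hnRNP D-like) and Hnrnpd (AUF1, which binds AU-rich elements of short-lived mRNAs), Hnrnpa0, an AU-rich element binder of the A/B group, and Fubp1, a KH protein that binds single-stranded DNA upstream of Myc and takes part in splicing. A single gene, Pcbp1, rose. The 5 that fell are 14.7% of the members, against 4.67% of all tested genes called lower, and the 1 that rose is 2.94%, against 5.79% called higher. Calls are from limma with Benjamini-Hochberg adjusted p under 0.05 over all 11785 genes.

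The summed embryonic stem cell markers differed with genotype too. With LIF the sum was 10090 FPKM in WT cells against 7220 and 7244 FPKM in KO cells. Without LIF it was 4505 FPKM against 4110 and 3402 FPKM. Dppa5a was the largest part, at 6460 FPKM in WT cells against 4062 and 4115 FPKM in KO cells with LIF. With LIF Tdgf1 was higher in both KO libraries, Zfp42 and Sall4 lay on both sides of WT, and the others were lower. Without LIF Nanog and Sall4 were higher in both, Zfp42, Esrrb and Klf2 lay on both sides, and the others were lower. The neural markers summed to 89.9 FPKM against 90.8 and 82.6 FPKM with LIF and to 86.6 FPKM against 56.0 and 53.6 FPKM without it. Most of that sum was Tubb3, at 77.1 FPKM in WT cells against 48.4 and 47.5 FPKM in KO cells without LIF. In that medium Pax6 was also lower in both KO libraries and Map2 lay on both sides of WT. Sox1 and Neurog2 averaged below 1 FPKM over the 6 libraries. The formative and primed epiblast markers summed to 174 FPKM in WT cells against 249 and 331 FPKM in KO cells with LIF. Each of them was higher in both KO libraries there. Without LIF their sum was 598 FPKM against 380 and 489 FPKM. In that medium Dnmt3b (379 FPKM against 236 and 275 FPKM) and Otx2 were lower in both KO libraries. T was higher in both (1.81 FPKM against 4.45 and 13.3 FPKM), and Fgf5 and Pou3f1 lay on both sides of WT. Fibroblast markers summed to 3.33 FPKM (WT) against 7.60 and 8.23 FPKM (KO) with LIF, and to 5.96 against 5.60 and 8.36 FPKM without it. Thy1 made up most of it. Primitive endoderm markers summed to 1.29 FPKM against 2.97 and 2.07 FPKM with LIF, and to 1.79 against 2.55 and 2.67 FPKM without it. For trophoblast markers it was 39.1 FPKM against 24.1 and 28.3 FPKM with LIF, and 27.4 against 27.6 and 33.8 FPKM without it. The part of these markers in the members' differences was not tested.

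Rbm3 was at 61.0 FPKM in the WT library with LIF and at 59.8 without it. In KO cells it was at 28.2 and 38.7 FPKM with LIF and at 30.6 and 34.6 FPKM without. All 4 KO libraries lay below both WT libraries, with means of 54.8% of WT with LIF and 54.5% without it. The difference was the largest of the 34 genes, -0.86 on the log2(FPKM + 1) scale (SE 0.14, limma adjusted p = 0.0143). On this scale low values are compressed, so changes of low genes are understated. Rbm3 lies on chromosome X at 8138975 to 8145880, where 25 tested genes within 500 kb had a median of 0.04, with 1 called lower and 2 higher.

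Hnrnpdl went from 109.7 FPKM in the WT library with LIF to 68.0 and 75.4 FPKM in KO cells, and from 118 to 64.3 and 75.3 FPKM after LIF removal. KO means were 65.4% of WT with LIF and 59.2% without it, with no overlap of the groups (-0.68, SE 0.11, adjusted p = 0.0138). Its relative Hnrnpd was the most even of the 5. It stood at 79.0 and 77.0 FPKM in WT cells against 55.9 and 56.8 FPKM in KO cells with LIF and 53.0 and 54.4 FPKM without it (-0.50, SE 0.10, adjusted p = 0.0208).

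Hnrnpd and Hnrnpdl are neighbours on chromosome 5 (GRCm38: Hnrnpd at 99955935 to 99978938 and Hnrnpdl at 100033577 to 100039664, both on the minus strand), 54638 bp apart. Among the 5 tested genes within 500 kb of Hnrnpd, Hnrnpdl was the only one called, and their median difference was -0.09. The 6 tested genes around Hnrnpdl had a median of -0.08 and ranged from -0.65 to 0.10. Hnrnpd (-0.50) was the only one of them called, so the lowest was a neighbour that was not called.

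Hnrnpa0 has a single exon in the GENCODE M21 annotation. It was at 301 and 253 FPKM in WT cells, and at 235 and 211 FPKM in KO cells with LIF and 156 and 185 FPKM without it. The KO libraries lay below both WT libraries (-0.50, SE 0.11, adjusted p = 0.0308). The 6 tested genes within 500 kb of Hnrnpa0 had a median of -0.23, with 1 called higher and none lower. Fubp1 had 53.5 and 58.1 FPKM in WT cells, and 40.3 and 35.4 FPKM with LIF and 47.0 and 40.8 FPKM without it in KO cells (-0.44, SE 0.12, adjusted p = 0.0483). Its groups did not overlap either, although its adjusted p was the closest to the threshold.

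The sequence at the start sites of the group was examined as well. Windows from 250 bases before to 50 after a start, from RefSeq on GRCm38.p6, were found for 29 of the 34 genes, with none for Rbm3. The windows of 4 of the genes that fell are printed 5′ to 3′, with capitals marking matches on either strand to the CCAAT box, to GGGCGG (the GC box), to CCGGAAG (an ETS-type match), to CACGTG (an E-box) and to TCCCCGCC (described as a mild-cold-responsive element). The TATA box TATAAA was also searched, as were the cyclic AMP response element TGACGTCA and the palindrome CTCGCGAG, and none of these is in the 4 windows. Matches to the GC box and to TCCCCGCC may share bases.
Hnrnpdl (chr5:100039173-100039472, minus strand): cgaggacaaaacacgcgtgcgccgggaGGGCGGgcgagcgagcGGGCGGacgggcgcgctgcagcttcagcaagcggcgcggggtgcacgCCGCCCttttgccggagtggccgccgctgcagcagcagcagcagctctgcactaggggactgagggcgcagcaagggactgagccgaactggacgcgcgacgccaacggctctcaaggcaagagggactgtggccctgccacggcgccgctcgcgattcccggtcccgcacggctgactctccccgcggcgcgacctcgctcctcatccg
Hnrnpd (chr5:99978889-99979188, minus strand): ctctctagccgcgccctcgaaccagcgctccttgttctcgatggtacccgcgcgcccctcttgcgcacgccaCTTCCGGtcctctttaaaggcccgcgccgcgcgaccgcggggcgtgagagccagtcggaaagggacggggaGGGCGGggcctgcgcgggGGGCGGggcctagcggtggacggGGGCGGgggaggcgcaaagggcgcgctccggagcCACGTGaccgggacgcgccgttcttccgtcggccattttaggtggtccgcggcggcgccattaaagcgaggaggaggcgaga
Hnrnpa0 (chr13:58128507-58128806, minus strand): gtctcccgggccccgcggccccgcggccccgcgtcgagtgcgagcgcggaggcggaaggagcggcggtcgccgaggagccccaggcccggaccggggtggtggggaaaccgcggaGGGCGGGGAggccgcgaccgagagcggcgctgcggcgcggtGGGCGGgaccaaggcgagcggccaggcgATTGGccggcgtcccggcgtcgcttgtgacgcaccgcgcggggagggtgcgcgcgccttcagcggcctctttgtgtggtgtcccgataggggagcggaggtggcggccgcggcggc
Fubp1 (chr3:152210172-152210471, plus strand): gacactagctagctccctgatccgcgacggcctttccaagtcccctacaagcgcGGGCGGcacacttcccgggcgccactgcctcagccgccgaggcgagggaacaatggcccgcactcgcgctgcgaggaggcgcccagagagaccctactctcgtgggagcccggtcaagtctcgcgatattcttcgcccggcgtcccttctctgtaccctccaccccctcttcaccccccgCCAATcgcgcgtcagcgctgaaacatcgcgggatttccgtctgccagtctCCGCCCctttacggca

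The GC box is in all 4 windows, with 3 matches for Hnrnpdl, 3 for Hnrnpd, 2 for Hnrnpa0 and 2 for Fubp1. It is in 72.4% of the 29 windows of the group and in 35.9% of all 27025 promoter windows. CCAAT is in the windows of Hnrnpa0 and Fubp1 and not in those of Hnrnpd and Hnrnpdl, with 65.5% of the group and 37.9% of all windows holding it. The E-box and the ETS-type match are in the window of Hnrnpd alone among the 4, and in 17.2% and 10.3% of the group, against 7.24% and 9.12% of all. The cold-responsive match TCCCCGCC is in 2 windows of the group, those of Hnrnpa0 and Cirbp (6.90%, against 5.45% of all), where the first listed window stands for a gene with several. The TATA box is in 10.3% of the group and 14.2% of all, the cyclic AMP element in none and 1.88%, and the palindrome in none and 0.96%. The group's windows were rich in G and C, with a median of 65.7% against 52.7% over all windows, and the median observed-to-expected ratio of CpG was 1.01 against 0.39. A match is a description of the letters, not a binding site.

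Pcbp1, a poly(C)-binding regulator of splicing and translation that also delivers iron to ferritin, was at 312 and 254 FPKM in WT cells. It was at 389 and 392 FPKM in KO cells with LIF and at 343 and 363 FPKM without it, above both WT libraries in every KO library (0.40, SE 0.09, adjusted p = 0.0351). Pcbp1 lies on chromosome 6 at 86524492 to 86526321, also with a single exon. Of the 15 tested genes within 500 kb, 8 were called higher and none lower, with a median of 0.68, and the 182 tested genes between 50 and 100 Mb of chromosome 6, bounds drawn with these data known, had a median of 0.63. Over the 532 tested genes of the whole chromosome the median was 0.13. With values centred on the whole chromosome, not on the stretch, the difference for Pcbp1 was 0.24 (limma adjusted p = 0.147). The antisense gene 1600020E01Rik overlaps Pcbp1, at a mean of 6.17 FPKM, and whether strand was used in counting is not given in the sources used here.

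**Figure D2:**
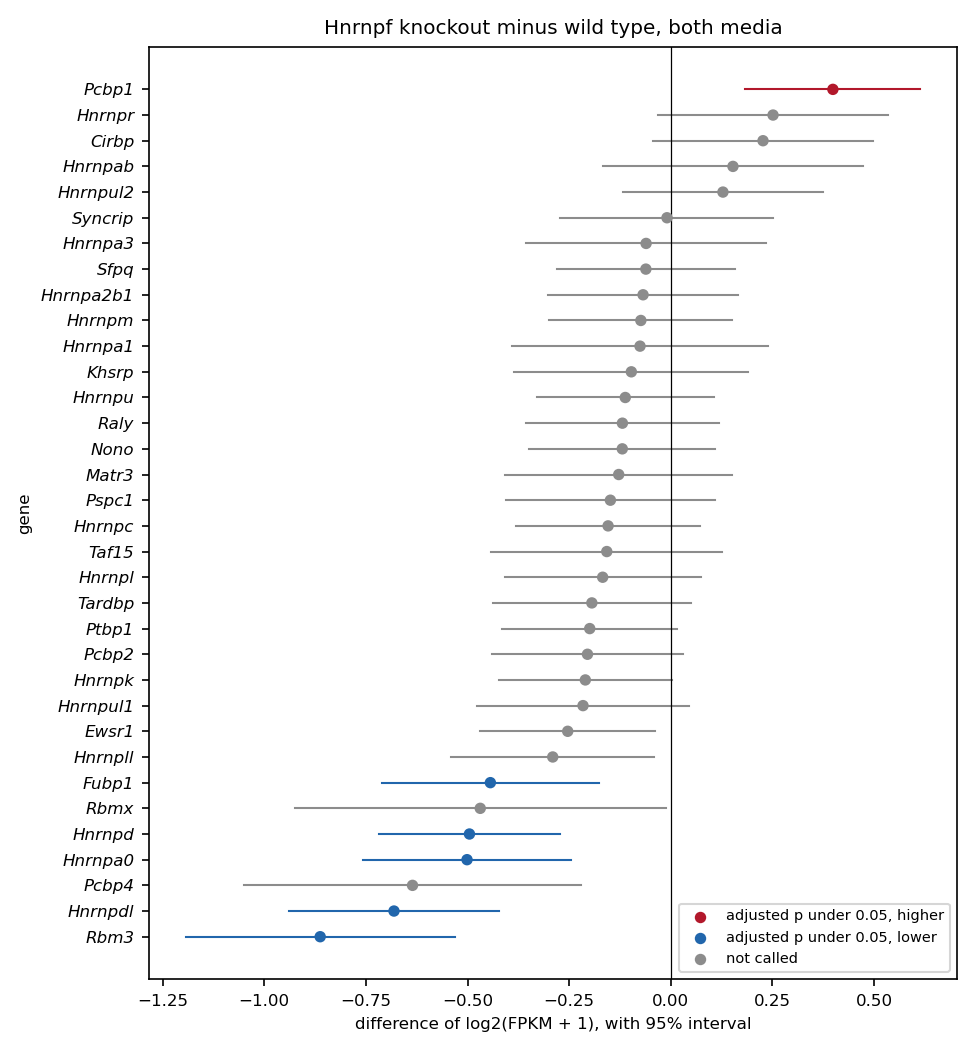
Difference of log2(FPKM + 1) between knockout and wild type over both media for each of the 34 genes, with its 95% interval from limma. Blue marks the 5 genes called lower, red the 1 called higher and grey the rest, of which most lie left of 0.

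The other 28 genes did not pass. Their differences lay mostly below 0, and over all 34 genes 29 were negative (85.3%) and 5 positive, with a median of -0.15. After quantile normalization 27 were negative, with a median of -0.07. Over all tested genes 54.4% were negative, with a median of -0.03. In 12 of the 34 genes (35.3%) all 4 KO libraries lay below both WT libraries, which held for 13.0% of all tested genes. In 2 genes, Pcbp1 and Hnrnpul2, all 4 lay above (5.88%, against 11.9%).

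These 12 were the 5 called lower and Pcbp2, Pcbp4, Ptbp1, Hnrnpu, Hnrnpk, Ewsr1 and Taf15. Pcbp4, a poly(C)-binding protein linked to growth arrest, was at 120 and 121 FPKM in WT cells, and at 93.6 and 86.8 FPKM in KO cells with LIF and 53.6 and 81.9 FPKM without it. Its difference was -0.64 (SE 0.18, adjusted p = 0.0612), with KO library 1 after LIF removal the lowest. Without that library the adjusted test called Pcbp4 lower, and likewise without KO library 2 after LIF removal.

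Among splicing regulators, Ptbp1, the repressor of neuronal exons, gave -0.20 (95% interval -0.41 to 0.02, adjusted p = 0.211). Hnrnpk, a KH protein that binds C-rich RNA, gave -0.21 (-0.42 to 0.003, adjusted p = 0.185), and Hnrnpa1, the prototype splicing repressor, gave -0.08 (-0.39 to 0.24, adjusted p = 0.768). Syncrip (hnRNP Q) gave -0.01 (-0.27 to 0.25, adjusted p = 0.969). All 4 intervals include 0, and their lower ends lie between -0.42 and -0.27, so a lack of change is not shown. The value of Hnrnpa1 is also uncertain because of its near-identical copy Gm5643, which gave -0.53 (limma adjusted p = 0.085). Added together, Hnrnpa1 and Gm5643 were lower in each KO library (155 to 174 FPKM) than in either WT library (184 and 217 FPKM). The difference of these sums was not tested.

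The paraspeckle proteins Sfpq (-0.06), Nono (-0.12) and Pspc1 (-0.15) were not called, with adjusted p of 0.724, 0.484 and 0.437. The same held for Tardbp (TDP-43, -0.19, adjusted p = 0.281) and Matr3 (matrin 3, -0.13, adjusted p = 0.543). Hnrnpll, a CA-repeat binder, gave -0.29 (adjusted p = 0.127), and its relative Hnrnpl gave -0.17 (adjusted p = 0.343). Khsrp, a KH-type factor of mRNA decay and microRNA processing, gave -0.10 (adjusted p = 0.662). Cirbp, the cold-inducible relative of Rbm3, gave 0.23 (-0.04 to 0.50, adjusted p = 0.258), so its point estimate had the opposite sign to that of Rbm3.

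Ewsr1, Taf15 and Hnrnpab lie on chromosome 11, whose 998 tested genes had a median difference of 0.46 between KO and WT. Ewsr1, an FET protein that binds RNA and transcription factors, was at 182 and 171 FPKM in WT cells, and at 161 and 159 FPKM in KO cells with LIF and 133 and 140 FPKM without it. Taf15, another FET protein, was at 61.5 and 67.8 FPKM in WT cells, and at 61.1 and 59.9 FPKM with LIF and 49.9 and 61.0 FPKM without it in KO cells. As deposited neither was called (Ewsr1 -0.25, adjusted p = 0.125; Taf15 -0.16, adjusted p = 0.459). Relative to the median of the chromosome both were called lower, Ewsr1 by -0.70 (SE 0.09, adjusted p = 0.00923) and Taf15 by -0.61 (SE 0.12, adjusted p = 0.0238). Hnrnpab, on the same chromosome, changed sign, from 0.15 (adjusted p = 0.526) to -0.30 (adjusted p = 0.199), and was called in neither.

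**Figure D3:**
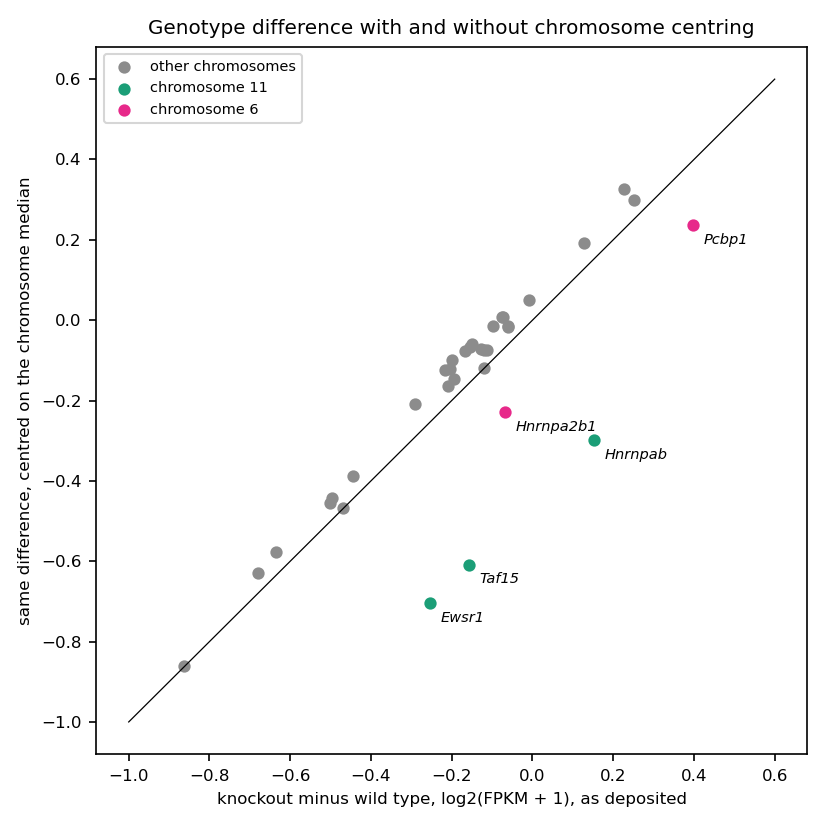
Difference between knockout and wild type over both media in log2(FPKM + 1), as deposited (horizontal) and after each library was centred on the median of the gene's chromosome (vertical), with 1 point per gene and the line of equality. The chromosome 11 genes Ewsr1, Taf15 and Hnrnpab lie furthest below the line, and the chromosome 6 genes Pcbp1 and Hnrnpa2b1 also lie below it.

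The count of members called for genotype rested on the 2 WT libraries: with either left out it was 0 of 34, with 7 and 5 of 11785 genes called in all. Without KO library 2 with LIF 2 members were called, Rbm3 and Hnrnpdl, and Hnrnpd and Hnrnpa0 then lost their calls. The call of Pcbp1 was lost without any 1 of the 6 libraries (adjusted p = 0.0538 to 0.298). That of Fubp1 was kept only without KO library 1 after LIF removal. With chromosome centring Hnrnpa0 (adjusted p = 0.0589) and Fubp1 (adjusted p = 0.0802) also missed the threshold.

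Taken medium by medium, no member passed. With LIF the lowest p belonged to Rbm3 (-0.87, SE 0.22, adjusted p = 0.140), Hnrnpdl (-0.61, adjusted p = 0.160) and Hnrnpd (-0.48, adjusted p = 0.189), and 7 members had an unadjusted p under 0.05, 1 of them higher, against 16.7% of all genes. After LIF removal they were Hnrnpdl (-0.75, SE 0.17, adjusted p = 0.150), Rbm3 (-0.86, adjusted p = 0.161) and Pcbp1 (0.47, adjusted p = 0.184), with 6 members at an unadjusted p under 0.05, 1 of them higher, against 15.5% of all genes. Of all genes limma called 0.0424% with LIF and 0.0594% without it. The difference of LIF responses between KO and WT cells was called for no member and for no gene (0 of 11785 by limma; 340 genes, or 2.89%, and none of the 34 at an unadjusted p under 0.05). For Rbm3 that difference was 0.01 (95% interval -0.75 to 0.76), and the lowest p was that of Pcbp4 (-0.45, -1.30 to 0.39, adjusted p = 1), followed by Hnrnpab (-0.34) and Hnrnpa3 (0.31).

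The KO libraries numbered 1 and 2 differ in residual Hnrnpf, and the members were set side by side on the assumption that a number marks the same line in both media. None of the 34 differed by the adjusted limma test, against 0.976% of all genes (0.458% higher in number 2 and 0.518% lower). Rbm3 had the lowest p and was higher in number 2 (0.31, SE 0.12, unadjusted p = 0.0345, adjusted p = 0.316). In both media Rbm3 was lower in KO library 1, which held more residual Hnrnpf RNA. A relation between Rbm3 and residual Hnrnpf was not tested. Hnrnpa1 gave -0.27 (adjusted p = 0.397) and Matr3 -0.21 (adjusted p = 0.486). By unadjusted p, Rbm3 was the 1 member under 0.05, against 13.7% of all genes.

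Removal of LIF over both genotypes, 3 libraries against 3, changed 5 of the 34 genes (14.7%, against 21.4% of all tested genes). Cirbp, Hnrnpul1, Hnrnpa1 and Raly fell (11.8%, against 12.7% called lower overall) and Hnrnpa3 rose (2.94%, against 8.73%). The marker sums given above moved with the medium as well. In all 3 kinds of cells the embryonic stem cell sum was lower and the formative and primed epiblast sum higher without LIF, and their part in these differences was not tested. Among the stem cell markers, Tdgf1 was higher without LIF in WT and KO 1 cells and Sall4 in KO 1 cells. The others were lower in all 3. In bulk RNA, fewer cells of a type and less RNA per cell cannot be told apart.

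Cirbp, which binds mRNA under mild cold and other stress, was at 33.2 FPKM in WT cells and at 38.8 and 34.7 FPKM in KO cells with LIF. After LIF removal it was at 18.0 FPKM in WT cells and at 21.6 and 23.6 FPKM in KO cells. All 3 libraries without LIF lay below all 3 with it (-0.73, SE 0.11, adjusted p = 0.00466). In KO cells alone it was the single member called (-0.68, SE 0.14, adjusted p = 0.0433, with 6.92% of all genes called, 3.88% lower and 3.05% higher), a call that was lost without any 1 of the 4 KO libraries (adjusted p = 0.0817 to 0.199). Rbm3 did not pass (-0.03, 95% interval -0.34 to 0.29, adjusted p = 0.909). 

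Hnrnpul1, an hnRNP U-like protein with a role at DNA breaks, was at 85.7, 84.7 and 70.3 FPKM with LIF (WT, KO 1 and KO 2) and at 66.4, 55.4 and 53.4 FPKM without it (-0.45, SE 0.11, adjusted p = 0.0223). Raly, a relative of hnRNP C, was at 254, 250 and 258 FPKM with LIF and at 222, 179 and 197 FPKM without it (-0.35, SE 0.10, adjusted p = 0.0370). For both, the medium groups did not overlap.

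Hnrnpa1 was at 104, 119 and 86.2 FPKM with LIF and at 75.1, 71.5 and 67.5 FPKM without it (-0.51, SE 0.13, adjusted p = 0.0275). Its close relative Hnrnpa3 went the other way, from 28.7, 22.6 and 26.7 FPKM to 33.5, 36.8 and 34.8 FPKM (0.42, SE 0.12, adjusted p = 0.0431). Both values are uncertain, because these genes have many near-identical copies in the genome. By blastn, 15 other genes match the coding sequence of Hnrnpa1 and 38 that of Hnrnpa3 at 90% identity or more over at least 300 bases. The Hnrnpa1 copy Gm5643 was at 112, 55.4 and 77.7 FPKM with LIF and at 108, 83.2 and 94.9 FPKM without it, with a mean of 88.7 FPKM against 87.2 FPKM for Hnrnpa1 itself. The sum of both was 217, 174 and 164 FPKM with LIF and 184, 155 and 162 FPKM without, and these ranges overlap.

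Short of the threshold were Hnrnpa0 (-0.34, adjusted p = 0.0515), Syncrip (0.35, adjusted p = 0.0535), Hnrnpa2b1 (0.29, adjusted p = 0.0616), Tardbp (0.28, adjusted p = 0.0836) and Hnrnpll (0.28, adjusted p = 0.0849). In 5 genes the libraries without LIF lay above all those with it (14.7%, against 14.9% of all genes), namely Hnrnpa2b1, Hnrnpa3, Sfpq, Syncrip and Tardbp. In 5 others they lay below (14.7%, against 16.8%): Cirbp, Hnrnpa1, Hnrnpul1, Nono and Raly. Of the 34 differences 17 were positive and 17 negative, with a median of -0.01 against -0.03 over all genes. After quantile normalization 22 were positive and 12 negative, with a median of 0.09, and with chromosome centring 20 were positive and 14 negative. Hnrnpd (-0.06), Hnrnpdl (0.01) and Fubp1 (0.18) were not called (adjusted p = 0.679, 0.968 and 0.275).

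Which members passed the test depended on scaling. After quantile normalization 5 were higher (Hnrnpa2b1, Hnrnpa3, Hnrnpll, Syncrip and Tardbp) and 1 lower (Cirbp). With median ratio scaling 2 were higher and 3 lower, and with chromosome centring 4 higher and 5 lower. Cirbp was called lower in each of these and without any 1 library. It was the only member called when either WT library, KO library 1 with LIF or KO library 2 without LIF was left out; 3 were called without KO library 2 with LIF and 2 without KO library 1 after LIF removal.

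In WT cells alone, where 1 library is compared with 1 and no test was made, no member moved by a log2 of 1 or more, against 8.36% of all tested genes (3.80% higher and 4.56% lower). Cirbp (-0.85) and Hnrnpa1 (-0.46) had the largest falls in value and Hnrnpa2b1 (0.37) and Syncrip (0.31) the largest gains. The median over the 34 genes was 0.07, against -0.04 over all genes.

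**Figure D4:**
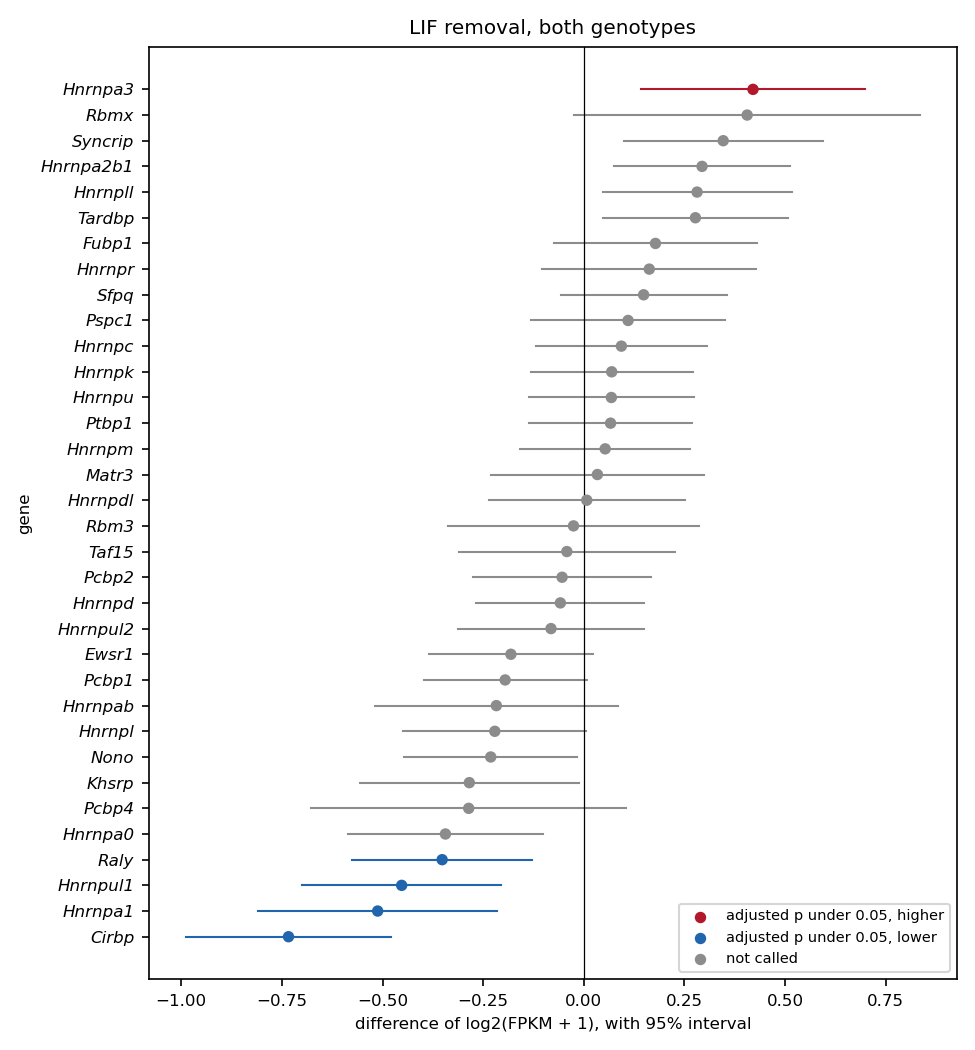
Difference of log2(FPKM + 1) on LIF removal over both genotypes for each of the 34 genes, with its 95% interval from limma. The 4 genes called lower are blue and the 1 called higher is red, and after quantile normalization the called genes were 5 higher and 1 lower.

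**Figure D5:**
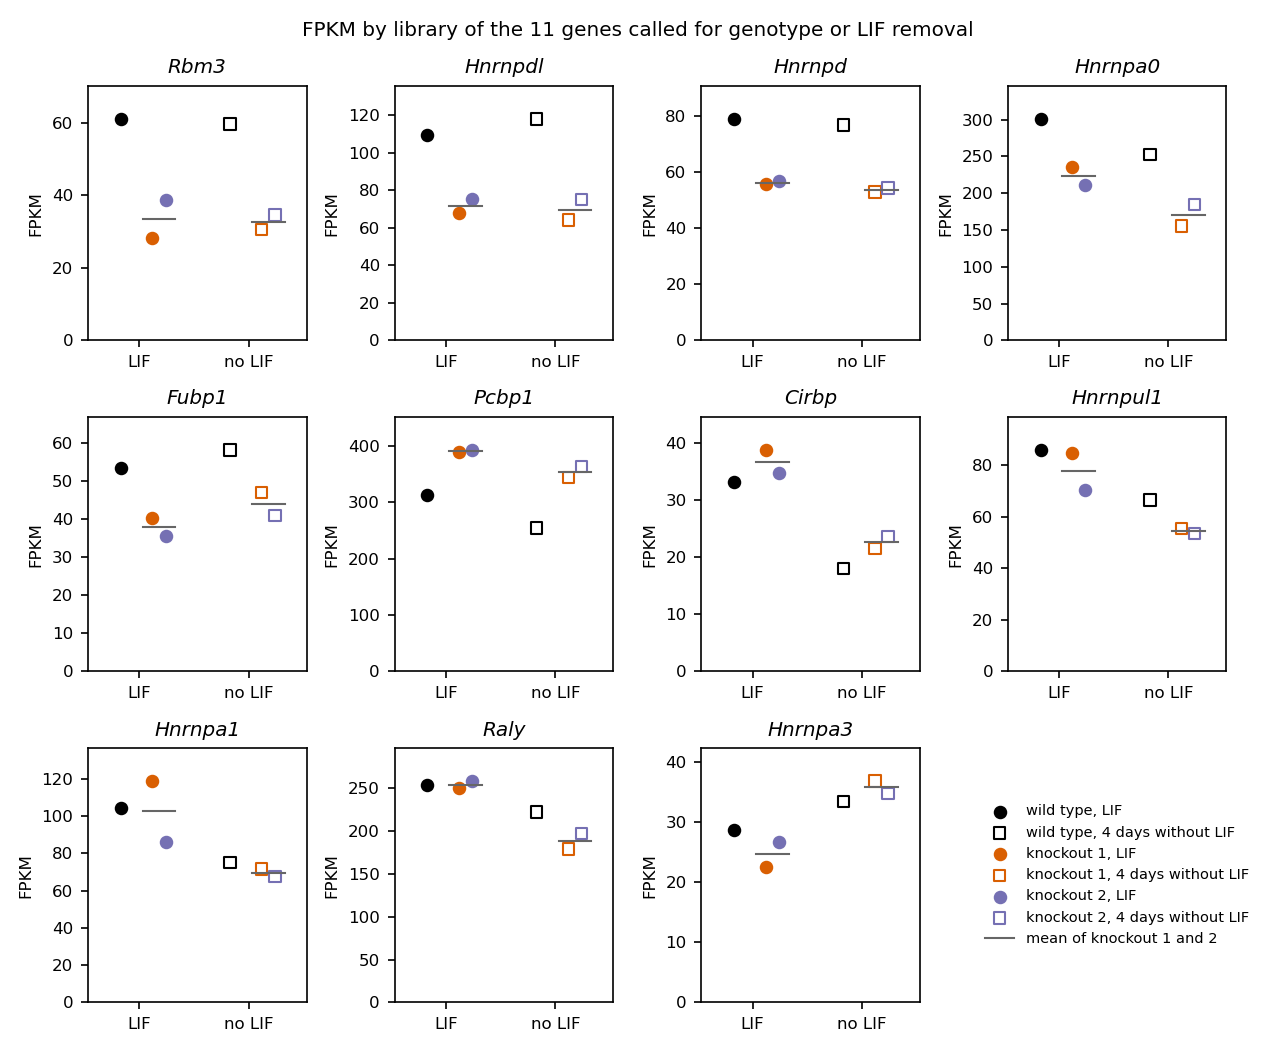
FPKM by library of the 11 genes called for genotype or for LIF removal, with wild type in black, knockout 1 in orange and knockout 2 in purple, and a bar for the mean of the 2 knockout libraries. Rbm3, Hnrnpdl, Hnrnpd, Hnrnpa0 and Fubp1 are lower in all 4 knockout libraries, and Cirbp is lower in all 3 libraries without LIF.

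Rbmx, an X-linked RRM protein of splicing and sister chromatid cohesion, shows the limit set by copies most plainly. It was at 6.67 and 7.38 FPKM in WT cells, and at 3.61 and 3.99 FPKM with LIF and 4.80 and 7.43 FPKM without it in KO cells (-0.47, SE 0.20, adjusted p = 0.171). Its retrocopy Rbmxl1 had a mean of 110 FPKM and was not called (adjusted p = 1). Of the 34 genes, 18 had at least 1 such copy among the annotated transcripts and 4 had a copy that the table also lists. Rbm3 is among these 4, with a match in Phospho2, which was at 5.78 to 12.2 FPKM and was not called (0.16, adjusted p = 0.717). Rbm3 had 4 copies in all, 3 of them pseudogenes. Hnrnpdl had 1 copy, a pseudogene with no value here. Hnrnpd, Hnrnpa0, Fubp1, Pcbp1 and Cirbp had no copy.

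The table gives 1 value per symbol, so splice forms cannot be told apart. In the GENCODE M21 annotation 19 of the 34 genes (55.9%) have a transcript marked for nonsense-mediated decay, against 29.2% of 11298 tested protein-coding genes, and 26 (76.5%) have a retained-intron transcript, against 60.1%. Hnrnpd has 4 transcripts marked for decay, Hnrnpdl 2, Rbm3 2 and Fubp1 3, while Hnrnpa0 and Pcbp1 have none.

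Relatives and partners of these proteins outside the group were counted for genotype beside all tested genes, of which 10.5% were called. In the H/F family of 5 genes, Hnrnpf fell (-2.58, SE 0.49, adjusted p = 0.0200) and Hnrnph1, on chromosome 11, rose (1.01, SE 0.10, adjusted p = 0.00440). Of 12 tested close relatives, 1 fell: Msi1, a Musashi translational regulator of stem cells (-1.02, SE 0.19, adjusted p = 0.0197). Of 12 nuclear partners, 1 fell, the helicase Ddx17 (-0.39, adjusted p = 0.0435). Of 9 tested import, methylation and kinase partners, 2 fell, the SR protein kinase Srpk1 (-0.48, adjusted p = 0.0272) and the arginine methyltransferase Carm1 (-0.51, adjusted p = 0.0437).

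On LIF removal, limma called 21.4% of all tested genes, 12.7% lower and 8.73% higher. Pcbp3 (-0.54, adjusted p = 0.0239) and Dazap1 (-0.44, adjusted p = 0.0432) fell among the 12 close relatives. Ybx3, a Y-box protein, fell among the 12 nuclear partners (-0.42, adjusted p = 0.0199). Tnpo1, the import receptor of hnRNP A1, rose (0.60, SE 0.11, adjusted p = 0.00847), 1 of the 9 genes of its list. Neat1, the RNA scaffold of paraspeckles, fell (-0.53, adjusted p = 0.0371), and Malat1 gave 0.01. None of the H/F genes was called. These lists were chosen with earlier results of these data known.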

How the data were processed

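Values are FPKM as deposited by the authors, 1 per gene symbol and library; the submitters' processing notes name STAR, Cufflinks and mm10, with versions, annotation and strand setting not given in the sources used here. Paired-end reads of 150 bp were made from total RNA, per the labels' protocols. Tests used log2(FPKM + 1) with no added scaling, for symbols with a mean of at least 1 FPKM, with limma 3.58.1 in R 4.3.3 (intensity trend, two-sided, Benjamini-Hochberg). Genotype and LIF over both levels came from a fit of the 2 as added terms (3 residual degrees of freedom). Effects within a medium, within KO cells and the difference of responses came from a 4-group fit (2 residual degrees of freedom), in which the single WT library per medium is taken to vary as the KO libraries do. KO 2 against KO 1 came from a fit of line and medium. Positions, transcripts and copies came from GENCODE M21 (GRCm38, the assembly of mm10), with coding sequences searched by blastn 2.17.0. The fit was tested on simulated data. Members called in a comparison are given with their values, with the 3 highest and 3 lowest by mean and the 3 with the lowest p where none was called. The members and lists were chosen with earlier results of these data known.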

Additional observations from a re-analysis of the deposited data

How the results depend on the processing

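Alternatives were a pseudocount of 0.1, no filter on low values, quantile normalization, median ratio scaling, no intensity trend, centring on the chromosome median, each library left out in turn, and the replicate block; the difference of responses cannot be estimated without either WT library. For the 12 member results called in a comparison, all 156 alternative values kept their sign; 84 kept the call and 72 lost it. Cirbp on LIF removal over both genotypes kept it in 13 of 13, and Rbm3 and Hnrnpdl for genotype in 11 of 13, lost without either WT library. The 6 members called for genotype became 3 with no filter and 3 with no trend (Rbm3, Hnrnpdl and Hnrnpd each time), and 0 to 6 with a library left out. The 5 called for LIF removal became 2 with no filter, 2 with no trend and 9 with chromosome centring, and 1 to 3 with a library left out. In KO cells the 1 became 0 with no filter, with quantile normalization or with no trend, and 0 to 1 with a library left out. The cause of these changes was not tested. Counts of members in the other comparisons stayed at 0.

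The 2 knockout numbers are shared between media, but nothing in the labels says what a number marks. The correlation of deviations from the group mean between same-numbered libraries was 0.366 over 11785 genes, from 2 pairs. With the replicate block, 7 members were called for genotype (Pcbp4 added), 8 for LIF removal and 5 for LIF removal in KO cells (Cirbp, Raly, Hnrnpul1, Hnrnpa1 and Hnrnpa3), while the share of all genes called went to 18.2%, 29.8% and 22.2%.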
